A study of Mus musculus with 96 samples.

Results

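Viewpoint 1 of a PE-4Cseq series on mouse chromosome 4 was a HindIII fragment at 147.9 Mb, and the contacts it made on a 129S5 chromosome carrying an engineered deletion in band 4E2 were compared with its contacts on an intact 129S5 chromosome. The libraries were chosen by label, as those of viewpoint 1 and the 129S5 allele, and numbered 4 of the 96 in the series. All cells were mouse embryonic fibroblasts (MEFs) of mixed C57BL/6J and 129S5SvEvBrd background, prepared from embryos of day 13.5 out of matings of Df/Dp male chimeras with C57BL6/J animals, and used when confluent at passage 4. Lines 129S5E71 and 129S5E98 (E71, E98) had the genotype df/+Bl6, and their deleted 129S5 chromosome is called Df. Lines 129S5E117 and 129S5E118 (E117, E118) had the genotype +129/+Bl6, and their intact 129S5 chromosome is called +129. The C57Bl6 chromosome of these cells was intact throughout, and it is called +DBl6 in the deletion lines and +Bl6 in the control lines. It gave another 4 libraries of viewpoint 1, which are used as the background. Each genotype was represented by 2 lines, so a difference between genotypes and a difference between individual lines cannot be told apart beyond what 2 lines per group show. The files hold DNA contacts and no RNA, so the cell type could not be checked against marker genes.

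In circular chromosome conformation capture, chromatin is fixed with formaldehyde, cut and ligated, so that fragments lying near each other in the nucleus become joined. Inverse PCR from 1 fragment, the viewpoint, then amplifies whatever was ligated to it, and the read count of each partner fragment serves as a measure of contact. Contact falls steeply with distance along the chromosome, genes that share active chromatin tend to meet over longer distances, and a deletion joins sequences that were far apart. A strain polymorphism read together with each partner tells which of the 2 copies of the chromosome the contact came from.

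The viewpoint fragment covers chr4:147977586-147978191 of NCBI37 (mm9), is 606 bp long, holds 1 DpnII site and spans an exon and an intron of Masp2, which encodes a serine protease of the lectin pathway of complement. The pair of primers that read it out are shown because they fix which end of the fragment was measured. In the sequences the capitals mark the HindIII site AAGCTT. The first primer lies at chr4:147977580-147977599 on the minus strand and reads out of the centromeric end of the fragment, and the second, at chr4:147977866-147977885 on the plus strand, reads across the strain polymorphism.
HindIII-side primer: tggcaaccgggtagAAGCTT
SNP-side primer: cggctactattgctcctgca
Viewpoint end, chr4:147977580-147977609, plus strand: AAGCTTctacccggttgccactggattgat

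The partner fragments on which the results below turn are shown by the plus-strand sequence at their centromeric HindIII end, since this end is the kind of sequence to which the authors aligned the reads. The Mtor, Exosc10 and Tardbp fragments had the highest lowest count among the 4 libraries between 20 kb and 1 Mb. The fragment 27 kb upstream of the viewpoint, which reaches into Exosc10, is shown because the calls near the viewpoint turned on it. The Lck fragment and the one shared by 2510006D16Rik and Ccdc28b were among the 3 strongest beyond 10 Mb, and the Tas1r3 fragment was the strongest beyond the deletion.
Mtor, exon and intron, chr4:147917689-147917718: AAGCTTttgtcagtaatttttatctgaggt
Exosc10, exon and intron, chr4:147934597-147934626: AAGCTTctgcaagttgtcctctgaccttta
Tardbp, exon and intron, chr4:147997731-147997760: AAGCTTtggctgttccgattggtttataat
Fragment 27 kb upstream, chr4:147943579-147943608: AAGCTTggccatgatgttggcccctccatg
Lck, exon and intron, chr4:129227143-129227172: AAGCTTgggtcacctgagagtgtctcggga
2510006D16Rik and Ccdc28b, chr4:129297221-129297250: AAGCTTtgctatgtgtcggtgtctgcttca
Tas1r3, exon and intron, chr4:155235610-155235639: AAGCTTctacccaccatcctttttgcctgt

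The 129S5 libraries held 69859 chromosome 4 reads in Df E71, 1311546 in Df E98, 422522 in +129 E117 and 1093518 in +129 E118. Between 47.5% and 58.5% of these lay within 20 kb of the viewpoint, a zone left out of every share and test below, so 35477, 543847, 203722 and 574308 reads remained in the same order. Values are given as percent of these remaining reads or as RPM, with each library scaled to a total of 1000000. Df E71 was the thinnest library, with 1669 captured fragments (those with at least 1 read) outside the zone against 4738 to 6713 in the others. No pair of libraries of different lines correlated above 0.616 over 80 kb windows outside the deletion, so all were kept as separate samples. Wilson 95% intervals are given for shares of single libraries. Reads carried no molecular identifiers, and these intervals cover counting error only.

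The deletion itself was visible first. Located with viewpoints 2, 11 and 12 and without the libraries described here, the deleted interval ran from chr4:150079994 to chr4:154419873, a length of 4.34 Mb with 1111 HindIII fragments. It began 2.10 Mb downstream of viewpoint 1. The interval received 0.403% of the reads in Df E71 (0.342 to 0.475) and 0.376% in Df E98 (0.361 to 0.393). It received 7.46% in +129 E117 (7.34 to 7.57) and 6.83% in +129 E118 (6.76 to 6.89). The groups lay far apart, with a Df value 0.0546 times that of +129, whereas the C57Bl6 chromosome of the same lines stood at 7.15% and 6.07% in the deletion lines and 7.17% and 7.37% in the control lines. Each 129S5 library therefore went with its label. With 2 libraries against 2, the exact permutation test (two-sided) cannot give a p below 0.33, the value it took here and for every measure below whose groups did not overlap.

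Within the deleted interval, 21 of the 50 windows of 80 kb that could be tested fell in Df (edgeR's quasi-likelihood test on read counts with Benjamini-Hochberg adjustment, threshold 0.05), and no window elsewhere fell. Over the whole chromosome 2.38% of the 882 windows tested fell, and all of these were in the interval. Without +129 E117 the calls of both directions together dropped from 22 to 12. By gene, with 10 kb added on each side, 27 of the 49 protein-coding genes of the interval fell, against a background of 3.13% of the 863 genes tested, and 46 of the 49 had both Df libraries below both +129 libraries, against 24.4% of all genes tested. The median log2 difference was -5.28 in the interval and -0.23 over all genes tested. Neighbouring genes share fragments, so these genes are not independent counts.

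Camta1, a calmodulin-binding transcription activator that spans much of the centromeric part of the interval, had 169 and 572 RPM in Df E71 and E98 and 15160 and 10290 RPM in +129 E117 and E118. Its log2 difference was -4.99 ± 0.56 (SE; edgeR quasi-likelihood, Benjamini-Hochberg adjusted p = 5.36e-16). Prdm16, a zinc-finger regulator of brown fat and blood stem cells near the telomeric end, had 84.6 and 241 RPM against 5939 and 4311 RPM, a log2 difference of -4.83 ± 0.71 (edgeR quasi-likelihood, Benjamini-Hochberg adjusted p = 3.07e-09). Errfi1, an inhibitor of the EGF receptor and the first gene of the interval to pass the test, had 28.2 and 97.5 RPM against 4977 and 6456 RPM. In all of them the pairs of lines were separated by more than a factor of 10. The other genes that fell included Park7, whose product protects against oxidative stress, the clock gene Per3, the apoptotic nuclease gene Dffb, the cilium gene Nphp4 and the p53 relative Trp73. Their fitted log2 differences ranged from -7.20 for A430005L14Rik to -3.32 for Megf6 across the 27. Among the windows that fell, the 2 with the most reads on +129 were those of Errfi1, Park7 and Tnfrsf9 just past the start of the interval. At the telomeric edge, where the 10 kb margins reach past the end of the deletion, the Df libraries had 789 and 346 RPM at Plch2 and 789 and 291 RPM at Gm10564.

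**Figure D1:**
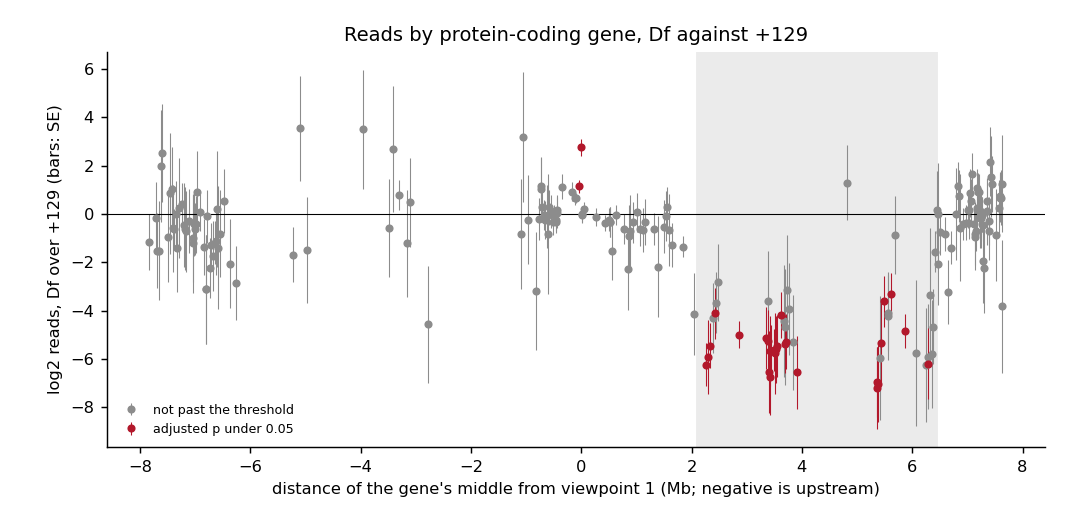
Log2 difference in reads between Df and +129 for each protein-coding gene tested within 8 Mb of viewpoint 1 (vertical axis, bars are SE of the fit), against the distance of the gene's middle from the viewpoint in Mb (horizontal axis, negative is upstream). The grey band is the deleted interval, which starts 2.10 Mb downstream; red points passed an adjusted p of 0.05 (27 lower, 2 higher), and all the lower ones lie in the band.

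A small number of reads in the Df libraries still mapped into the deleted interval as located here. Df E71 had 143 such reads in 30 fragments and Df E98 had 2047 in 328 fragments. Of these fragments, 23 and 274 also held reads of the +DBl6 library of the same line, and 86.7% and 96.6% of the reads lay in them. The Df reads in the interval amounted to 4.83% and 5.69% of those of +DBl6. In Df E71, 80 of the 143 reads sat in 1 fragment 4.76 Mb from the viewpoint, and without it the interval's share was 0.178%. In Df E98 the fragment with the most reads was the first of the interval, with 278, and without it the interval's share was 0.325%. This first fragment had 355 and 255 reads on +129 E117 and E118 and 27 on +DBl6 E98. Located with viewpoint 11 or viewpoint 12 alone, the interval began past it, at chr4:150083826. Whether the fragment is part of the deleted sequence was not tested. The level at which reads of one allele appeared on the other was measured at fragments outside the interval. For this, 11 fragments within 2 Mb were picked, after the data had been seen, for a 10-fold or larger difference between the alleles in both control lines. At the 6 of them with more C57Bl6 reads, the 129S5 level was 0 to 8.39% of the C57Bl6 level in E71 and 2.54 to 8.85% in E98. The largest of these, in Tardbp 19 kb downstream, had 2678 and 4591 RPM on Df against 31920 and 51880 RPM on +DBl6. The percentages of the interval lay within this range but above its medians, which were 0.932% in E71 and 3.37% in E98. The upper end of the range in both lines was the Tardbp fragment, which lies inside the 20 kb zone. The part that wrongly assigned reads had in the interval's percentages was not tested. Of the 5 fragments with more 129S5 reads, those 89.2 and 99.8 kb downstream kept the C57Bl6 allele below 8% of 129S5 in both deletion lines, and the others did not.

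The near domain, from 20 kb to 1 Mb on both sides, took the largest part of the reads in 3 of the 4 libraries, while in +129 E117 sequence beyond 10 Mb held more. The near domain had 55.4% and 53.6% of them in Df E71 and E98 and 36.8% and 44.7% in +129 E117 and E118, a Df level 1.34 times that of +129 with no overlap. Of the 427 fragments there with a mappable end, 264 (61.8%) were captured in all 4 libraries and 34 in none. The Mtor fragment had 46450, 27870, 18930 and 18610 RPM in Df E71, Df E98, +129 E117 and +129 E118. Mtor encodes the growth-regulating kinase of the mTOR complexes, and the gene lies on the upstream side of the viewpoint. The Tardbp fragment on the other side had 23060, 30920, 17870 and 37730 RPM, and there the groups overlapped. Tardbp encodes TDP-43, an RNA-binding protein.

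The higher near share of Df came from the upstream side. From 20 to 100 kb upstream the reads made up 18.9% and 19.9% in the Df lines and 9.51% and 11.6% in the +129 lines, means of 19.4% ± 0.721 and 10.6% ± 1.49 (SD, n = 2). From 100 kb to 1 Mb upstream the means were 17.5% ± 1.51 and 11.5% ± 2.81. Downstream, the share from 20 to 100 kb was 8.95% in both Df libraries and 8.09% and 8.99% in the +129 libraries, and it was nearly level between the groups. The downstream reads divided by the upstream reads, from 20 kb to 2 Mb, gave 0.522 and 0.540 on Df and 1.15 and 0.915 on +129. The same ratio on the C57Bl6 chromosome was 0.477 and 0.568 in the deletion lines and 1.02 and 0.985 in the control lines. The shift to the upstream side was thus as large on the intact chromosome of the deletion lines (0.520 times) as on the deleted one (0.518 times), and the near share was higher on both (1.29 and 1.34 times).

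**Figure D2:**
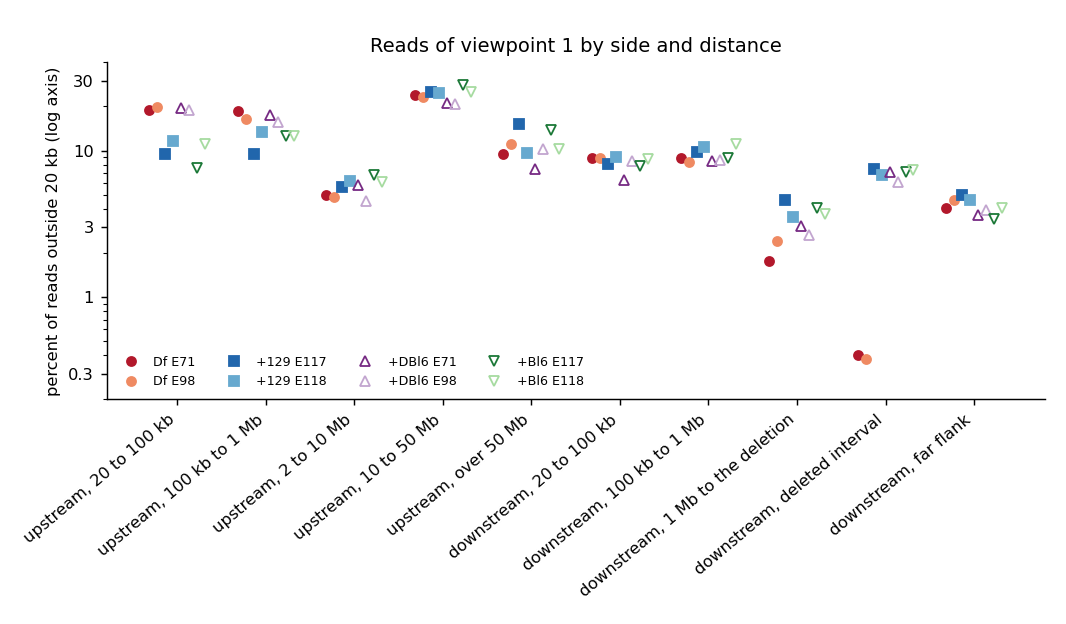
Percent of reads outside the 20 kb zone (vertical log axis) by side and distance from viewpoint 1 (horizontal axis), with 1 point per library; filled points are the 129S5 chromosome (circles Df, squares +129) and open triangles the C57Bl6 chromosome of the same lines. The 1 to 2 Mb upstream band, 0.0182 to 0.149% in the 129S5 libraries, is not drawn; the Df circles stand apart at 0.403 and 0.376% in the deleted interval, and the deletion lines lie above the control lines on both chromosomes from 20 to 100 kb upstream.

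A single window of the chromosome rose in Df, 0.113% of the 882 tested. With purification batch as a block, which pairs the lines, 3 windows rose. DESeq2 called 8 higher, edgeR with the size factors of DESeq2 3, and the fit without Df E98 none. The window of the first fit was chr4:147920001-148000000, which holds the viewpoint and overlaps Mtor, Exosc10, Srm, Masp2 and Tardbp. Outside the 20 kb zone it had 196200 and 194200 RPM on Df and 87210 and 125400 RPM on +129, a log2 difference of 0.84 ± 0.15 (edgeR quasi-likelihood, Benjamini-Hochberg adjusted p = 6.62e-06). Its C57Bl6 levels were 176700 and 186500 RPM in the deletion lines and 77090 and 112500 RPM in the control lines. The difference between the changes of the 2 chromosomes did not pass the test, at -0.36 ± 0.21 (edgeR quasi-likelihood, Benjamini-Hochberg adjusted p = 0.887).

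By gene, Srm and Exosc10 were the 2 of 863 (0.232%) that rose, and 6 genes rose with the purification batch as a block. Exosc10, a catalytic subunit of the nuclear RNA exosome, had 126600 and 135400 RPM on Df against 50410 and 69060 RPM on +129, a log2 difference of 1.14 ± 0.25 (edgeR quasi-likelihood, Benjamini-Hochberg adjusted p = 0.000561). Srm, the gene of spermidine synthase, lies at chr4:147965612-147969102 and was represented by 1 fragment, chr4:147943585-147958255, which is 14671 bp long. This fragment ends before Srm starts, lies partly in Exosc10 and counts for Srm only through the 10 kb margin, since the fragment that holds Srm itself lies in the excluded zone. That fragment had 57730 and 59880 RPM on Df, 2224 and 15430 RPM on +129, 61060 and 50230 RPM on +DBl6, and 1076 and 10880 RPM on +Bl6. The deletion lines thus exceeded the control lines on both chromosomes, and the control lines also differed among themselves. Its log2 difference as Srm was 2.77 ± 0.35 (edgeR quasi-likelihood, Benjamini-Hochberg adjusted p = 1.91e-12). When this fragment was left out, a step chosen after seeing the data, no window of the chromosome rose and the viewpoint window had 0.45 ± 0.16 (edgeR quasi-likelihood, Benjamini-Hochberg adjusted p = 0.136). Exosc10 then had 0.59 ± 0.22 and no longer passed (edgeR quasi-likelihood, Benjamini-Hochberg adjusted p = 0.14), while Mtor at 0.72 ± 0.14 (adjusted p = 5.91e-05 in the same edgeR fit) and Angptl7 at 0.76 ± 0.22 (adjusted p = 0.0232) passed, as did 1700055D18Rik far upstream, which had no read on +129. Angptl7, the gene of a secreted angiopoietin-like protein, lies within Mtor and shares its fragments. With the fragment included, Mtor had 239300 and 237100 RPM on Df against 136600 and 169100 RPM on +129, and 231300 and 223800 RPM on +DBl6 against 124800 and 163300 RPM on +Bl6 (0.65 ± 0.21 on 129S5; edgeR quasi-likelihood, Benjamini-Hochberg adjusted p = 0.0589).

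The fragment next to the viewpoint differed in the same direction. It shares the measured HindIII site with the viewpoint, covers chr4:147961407-147977585, and took 2.81% and 2.47% of all chromosome 4 reads in the Df libraries and 0.705% and 0.596% in the +129 libraries. On C57Bl6 it took 2.93% and 2.32% in the deletion lines and 0.698% and 0.526% in the control lines. Reads at this fragment can arise from incomplete cutting of the shared site as well as from ligation, and its part in the near upstream difference was not tested.

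Among the fragments outside the zone with at least 5000 RPM in a 129S5 library, 17 lay upstream and 8 downstream. A fragment could enter through 1 library alone, so their values are plotted as a description.

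**Figure D3:**
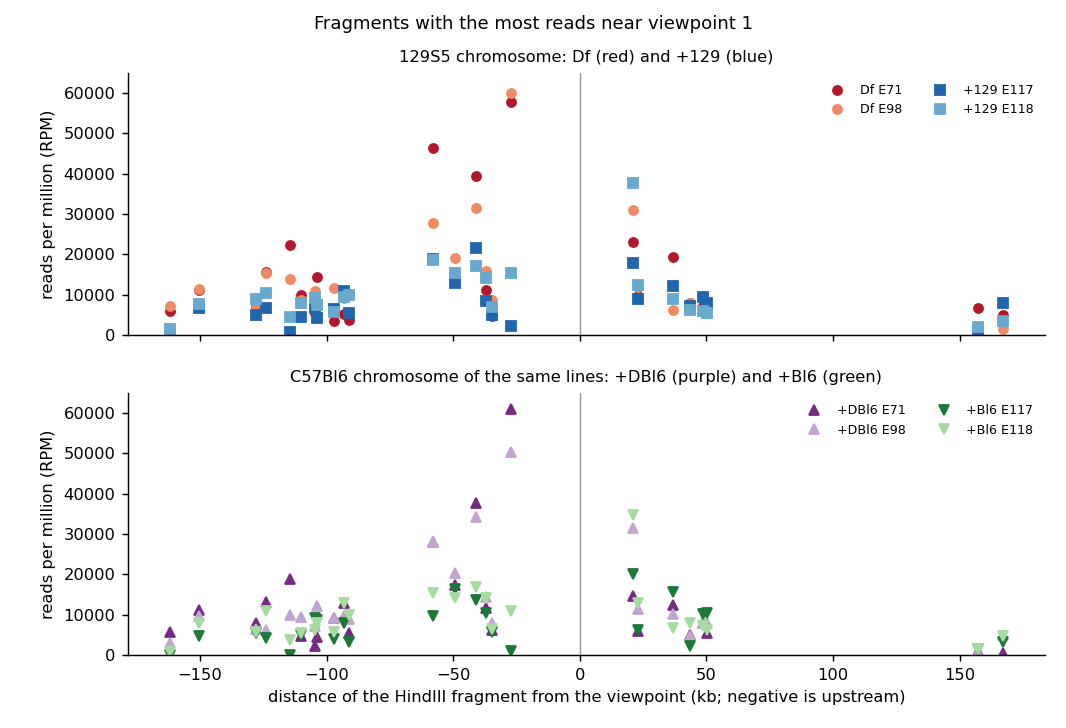
Reads of the HindIII fragments with the most contacts near viewpoint 1, in RPM (vertical axis), against the distance of each fragment's middle in kb (horizontal axis, negative is upstream); the upper panel shows the 129S5 chromosome and the lower panel the C57Bl6 chromosome of the same MEF lines. At 27 kb upstream the deletion lines stand between 50230 and 61060 RPM on both chromosomes and the control lines at 15430 RPM or below.

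The decay of contacts was described by the slope of log10 reads per kb against log10 distance. Upstream, from 20 kb to 10 Mb, the slope was -1.76 and -1.72 on Df and -1.41 and -1.44 on +129. It was steeper on Df by -0.315, and on the C57Bl6 chromosome the deletion lines were steeper by -0.265. Downstream, from 20 kb to 2 Mb, the slope was -1.17 and -1.09 on Df and -0.964 and -0.999 on +129, a difference of -0.15, against -0.028 on the C57Bl6 chromosome. These differences depended on how the slope was taken. A variant of the measure named in the methods, the slope of a smoothing spline at 100 kb, was taken from binned reads per kb on each side. The authors fitted theirs to contact probabilities scaled by fragment length. With this variant the upstream values were -1.39 and -1.66 on Df and -1.49 and -1.50 on +129. The downstream values were -1.01 and -1.10 against -1.06 and -0.864, so that the groups overlapped on both sides. The difference between the chromosomes had no test of its own.

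The upstream curve was broken by a stretch in which few fragments could be measured. Only 71 of the 278 fragments between 1 and 2 Mb upstream and 72 of the 275 between 2 and 3 Mb had an end whose 30 bases are unique among the HindIII ends of the genome, against 93.0% of the fragments farther away. Reads in the first of these pieces came to 1494, 245, 182 and 554 RPM in Df E71, Df E98, +129 E117 and +129 E118, all carried by 4 to 15 captured fragments. Between 6 and 7 Mb upstream, where every fragment was mappable, the level was 11420, 10900, 19690 and 18250 RPM. Contacts at that distance were therefore higher than at 1 to 5 Mb in each of the 4 libraries.

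**Figure D4:**
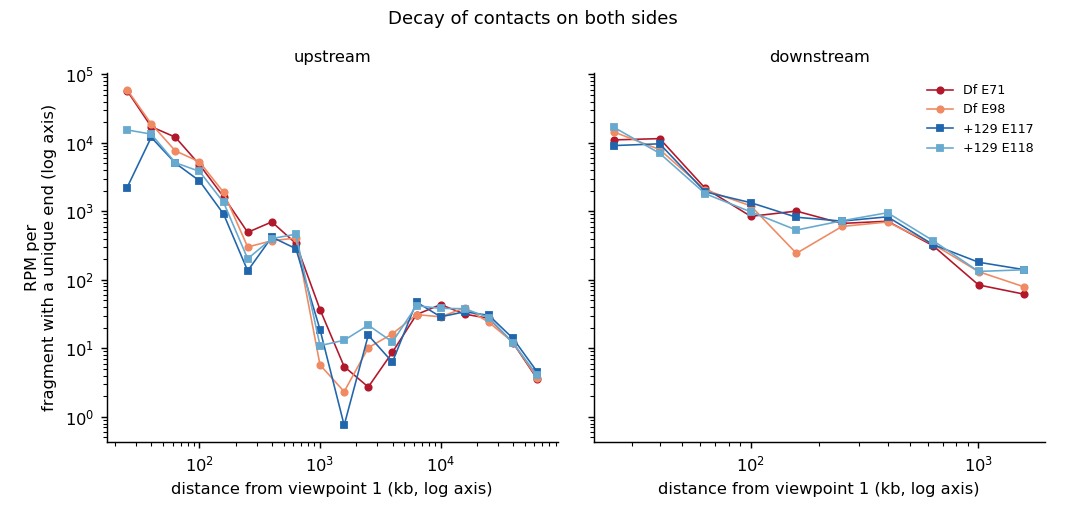
RPM per fragment with a unique end (vertical log axis) in distance bins upstream and downstream of viewpoint 1 (horizontal log axis, kb), for each 129S5 library; bins without reads are not drawn and the downstream panel stops before the deletion. The curves fall on both sides, the upstream ones show a dip between 1 and 5 Mb, and the Df curves start above the +129 curves at 25 kb upstream.

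Upstream windows between 1 and 10 Mb that were strong in every library clustered around 139 Mb. The strongest was chr4:138960001-139040000 in Ubr4, a ubiquitin ligase gene, with 6399, 2405, 3878 and 4747 RPM in Df E71, Df E98, +129 E117 and +129 E118. The neighbouring windows held Mrto4 and Ubr4, Iffo2 and Aldh4a1, and Capzb, Pqlc2 and Akr7a5. The window at chr4:141280001-141360000, with the apoptosis gene Casp9, Dnajc16 and Agmat, had 1635 and 2179 RPM on Df and 4702 and 4447 RPM on +129. It did not pass the test (-1.27 ± 0.86; edgeR quasi-likelihood, Benjamini-Hochberg adjusted p = 0.866), although its groups did not overlap.

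Contacts beyond 10 Mb, which lie upstream only, held 33.3% and 34.2% of the reads on Df and 40.5% and 34.2% on +129, and these overlapped (exact permutation p = 0.667). They were spread thinly: of 40620 mappable fragments, 127 (0.313%) were captured in all 4 libraries and 75.7% in none. The density fell from 27.8 to 30.7 RPM per mappable fragment in the block from 120 Mb up to the 10 Mb limit, to 16.1 to 19.1 between 100 and 120 Mb, and to 1.51 to 4.52 in the first 20 Mb of the chromosome. The fall was not steady: the block from 40 to 60 Mb had 4.81 to 8.32, above the 2.93 to 3.69 of the nearer block from 60 to 80 Mb. Among the windows strong in every library, one in Eif4g3, a translation initiation factor gene, had 2029, 1938, 1914 and 1827 RPM, and one in the cytoskeletal linker gene Macf1 had 2001, 1934, 2508 and 1553 RPM. Their fitted log2 differences between Df and +129 were 0.06 and -0.06. Picking windows for the highest lowest value in these libraries favours even levels, so nothing about change at long range follows from them. At the level of single fragments, Lck, a T cell kinase gene, had 1719, 511, 427 and 221 RPM and the 2510006D16Rik and Ccdc28b fragment had 338, 237, 496 and 449 RPM. The second was low on C57Bl6, with 0 and 50.6 RPM on +DBl6 and 28.6 and 22.0 RPM on +Bl6. Lck had 1619 and 180 RPM on +DBl6 and 1280 and 8.45 RPM on +Bl6.

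The distal windows that every library contacted differed in content from those that none did. The 413 windows beyond 10 Mb with reads in all 4 libraries had a median of 2 protein-coding genes and a GC content of 44.7%, whereas the 106 without reads had a median of 0 genes and 38.1%. The 50 windows with the highest lowest value had a median of 3 genes and 46.6% GC, and each of them held a gene. The number of mappable fragments was alike, with medians of 24 and 23 for the first 2 sets. The sets were not matched for distance from the viewpoint, along which read density fell, though not steadily. The part of distance in these contrasts was not tested.

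Outside the deletion, no window beyond the viewpoint's own passed the test between Df and +129 in the fit without the batch block. Of 791 upstream windows tested 1 rose, of 25 downstream windows before the deletion none changed, and of 14 on the far flank none changed (70 windows in all had an unadjusted p under 0.05, and DESeq2 called 42 windows where edgeR called 22). Most fitted values were below 0, with a median of -0.28 upstream, beside the larger near share of Df. The smallest p upstream among windows lower in Df was at chr4:110000001-110080000, with the neuronal RNA-binding gene Elavl4 and Agbl4. It had 197 and 14.7 RPM on Df and 2660 and 343 RPM on +129 (-4.10 ± 1.43; edgeR quasi-likelihood, Benjamini-Hochberg adjusted p = 0.149). In 12 windows (1.36% of the 882) the change from +129 to Df differed from the change from +Bl6 to +DBl6, 11 of them in the deleted interval and the other this one, whose lines differed widely on both chromosomes. For genes, the importin gene Kpna6 had 366 and 322 RPM against 2170 and 2271 RPM (-2.69 ± 0.94; edgeR quasi-likelihood, Benjamini-Hochberg adjusted p = 0.0965).

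The sequence that leads up to the deletion had fewer reads on Df. From 1 Mb to the deletion start the share was 1.75% (1.62 to 1.89) and 2.41% (2.37 to 2.45) in Df E71 and E98 and 4.60% (4.51 to 4.69) and 3.53% (3.48 to 3.58) in +129 E117 and E118, so Df held 0.512 times the +129 share. On C57Bl6 the deletion lines held 3.05% and 2.65% and the control lines 4.04% and 3.71%, or 0.735 times. Within a line, the log2 ratio of 129S5 to C57Bl6 was -0.80 in E71 and -0.14 in E98, against 0.19 and -0.07 in the control lines. Both chromosomes of the deletion lines thus held less here than those of the control lines, and the gap between the chromosomes was wider in E71 than in E98.

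Rere, which encodes a nuclear receptor coregulator and is the last long gene before the deletion, had 6399 and 7171 RPM on Df and 18700 and 16040 RPM on +129, a log2 difference of -1.35 ± 0.44 that missed the threshold (edgeR quasi-likelihood, Benjamini-Hochberg adjusted p = 0.0619). Without the fragment 27 kb upstream it passed, at -1.28 ± 0.39 (edgeR quasi-likelihood, Benjamini-Hochberg adjusted p = 0.0365). On C57Bl6, Rere had 10700 and 8139 RPM in the deletion lines and 17630 and 14980 RPM in the control lines. The last whole window before the deletion, chr4:149920001-150000000 in Rere, had 705 and 1614 RPM against 5012 and 6080 RPM (-2.23 ± 0.75; edgeR quasi-likelihood, Benjamini-Hochberg adjusted p = 0.113). The sugar transporter gene Slc45a1, the nearest to the deletion, had 56.4 and 57 RPM against 1114 and 923 RPM (-4.14 ± 1.69; edgeR quasi-likelihood, Benjamini-Hochberg adjusted p = 0.243). Slc45a1 had 1957 and 681 RPM on +DBl6 and 224 and 864 RPM on +Bl6, so its lower level was seen on Df only. The last whole window had 3624 and 2280 RPM on +DBl6 and 3826 and 5096 RPM on +Bl6. Located with the libraries of viewpoint 1 alone, the deleted interval began at chr4:149993861, and it then took in Slc45a1. Of the 13 genes between 1 Mb and the deletion, 5 had both Df libraries below both +129 libraries (background 24.4% of genes) and 1 had both above (background 13.4%). The median log2 difference of the 13 was -0.63.

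The flank beyond the deletion, 1.21 Mb up to the chromosome end, lies 6.44 to 7.65 Mb from the viewpoint on the intact chromosome and 2.10 to 3.31 Mb from it once the deleted length is taken off. Its share of the reads was 4.03% (3.83 to 4.24) and 4.58% (4.52 to 4.63) in Df E71 and E98 and 5.00% (4.90 to 5.09) and 4.57% (4.51 to 4.62) in +129 E117 and E118. The groups overlapped (exact permutation p = 0.667), with a Df level 0.899 times that of +129. No rise with the shorter distance was detectable, although a p that misses the threshold does not show that the levels were equal. None of the 14 windows and none of the 50 genes tested on the flank passed the test. Their median log2 difference by gene was -0.02, and 8 of the 50 had both Df libraries above both +129 libraries (background 13.4% of genes) while 8 had both below (background 24.4%).

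The absolute level of the flank was high on both chromosomes. Per mappable fragment it had 150 and 170 RPM in Df E71 and E98 and 186 and 170 RPM in +129 E117 and E118. On +129, sequence of the same length lying downstream at 2.10 to 3.31 Mb, inside the interval that Df lacks, had 93.4 and 88.1 RPM. The last 1.21 Mb before the deletion had 161 and 129 RPM on +129 and 68.0 and 90.9 RPM on Df. The flank at 6.44 to 7.65 Mb was thus the higher of these on +129, and on Df it exceeded the sequence just before the deletion. On C57Bl6 the flank had 136 and 147 RPM on +DBl6 and 126 and 150 RPM on +Bl6. The last piece before the deletion had 113 and 104.5 RPM on +DBl6 and 149 and 135 RPM on +Bl6. The flank was therefore the lower of these 2 pieces on +Bl6 E117. Upstream of the viewpoint, at 6.44 to 7.65 Mb, the density was 67.3 and 65.5 RPM on Df and 96.7 and 93.8 RPM on +129. At 2.10 to 3.31 Mb upstream it was 12.0 and 18.7 RPM against 19.2 and 23.3 RPM. Per mappable fragment, the flank density divided by this last one was 12.5 and 9.10 on Df and 9.66 and 7.28 on +129. Per Mb, the same ratio was 20.1 and 14.7 on Df and 15.6 and 11.7 on +129, which overlapped (exact permutation p = 0.667). Only 167 of the 345 fragments in that upstream piece were mappable.

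Along the flank, the 4 pieces of 100 kb from 500 to 900 kb past the deletion end had 3354 to 10720 RPM in the 129S5 libraries. Other pieces reached this range too. In Df E71, Df E98, +129 E117 and +129 E118 the piece from 100 to 200 kb had 5186, 1127, 6504 and 4461 RPM. The piece from 400 to 500 kb had 4989, 2429, 3117 and 4041 RPM in the same order. The piece 700 to 800 kb past the deletion end, with Atad3a, Vwa1, Mrpl20 and the cyclin gene Ccnl2, had 5722, 10720, 6558 and 7372 RPM in Df E71, Df E98, +129 E117 and +129 E118. The piece next to the deletion, with the peroxisome gene Pex10, Rer1 and Morn1, had 958, 741, 2091 and 1644 RPM. Of the 12 pieces of 100 kb with a mappable fragment, none had both Df libraries above both +129 libraries, and 1, that first piece, had both below. Cdk11b, a cyclin-dependent kinase gene of RNA processing, had 3439, 4012, 3573 and 3185 RPM, and Dvl1, a transducer of Wnt signals, had 2509, 4036, 3809 and 3428 RPM. Ski, a repressor of TGF-beta signalling near the deletion, had 4735, 1089, 5979 and 3836 RPM, and here the Df lines differed widely. The Tas1r3 fragment, from a sweet and umami taste receptor gene, had 1494, 1085, 815 and 1320 RPM. The fragment that adjoins the deletion on the far side had 507 and 199 RPM on Df and 19.6 and 0 RPM on +129, from 18, 108, 4 and 0 reads, and 1423 RPM in 1 of the +Bl6 libraries.

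**Figure D5:**
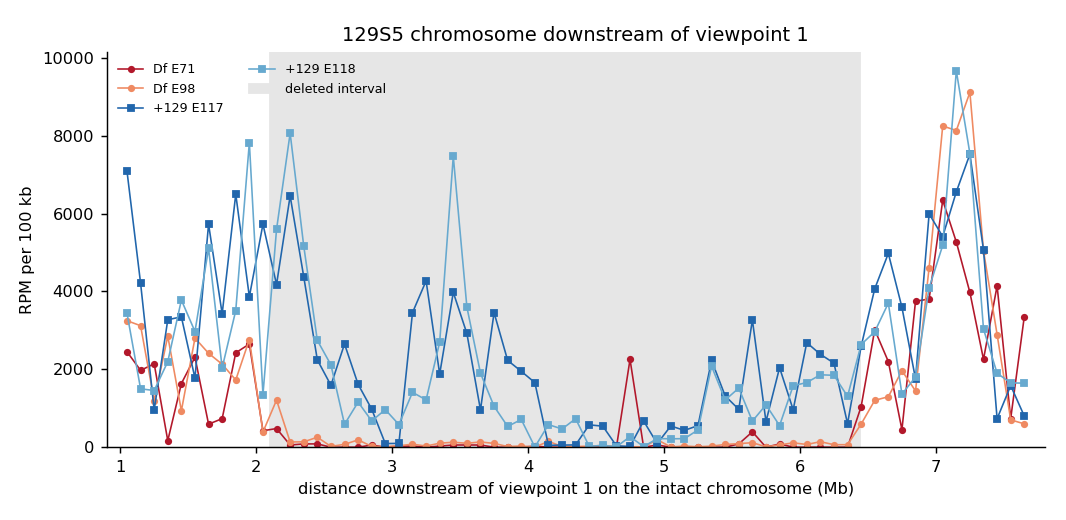
Reads per 100 kb in RPM (vertical axis) for the 4 libraries of the 129S5 chromosome against distance downstream of viewpoint 1 on the intact chromosome in Mb (horizontal axis); the grey band is the deleted interval. Df lines run near 0 in the band except for 1 fragment of E71 at 4.76 Mb, lie below the +129 lines just before it and rise again beyond it.

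The other viewpoints of the series gave the reverse view of 3 of these contacts. From viewpoint 1 to the 80 kb around viewpoint 11 on the flank, the reads were 2255 and 3804 RPM on Df and 4860 and 3747 RPM on +129. Read in the other direction they were 3028 and 2320 RPM against 2890 and 2723 RPM. For viewpoint 12, near the chromosome end, the values from viewpoint 1 were 3918 and 1043 RPM against 1227 and 2579 RPM, and in the other direction 3782 and 2298 RPM against 2116 and 1810 RPM. For viewpoint 2, which lies in Ctnnbip1 between viewpoint 1 and the deletion, they were 1325 and 2045 RPM against 1649 and 2333 RPM, and 963 and 2887 RPM against 5044 and 1233 RPM. The groups overlapped in each case except viewpoint 12 read towards viewpoint 1, where both Df libraries were higher, and none of the 3 windows passed the test from viewpoint 1.

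Lists of genes chosen for the region followed their positions. Of 19 genes discussed as candidates in monosomy 1p36, the human condition whose region this part of chromosome 4 matches, Camta1 and Prdm16 fell (background 3.13% of the 863 genes tested), and 4 of the 19 lie in the deletion. Kcnab2, a potassium channel subunit gene, and the chromatin remodeller gene Chd5, the other 2 deleted members, had 0 and 20.2 RPM against 702 and 510 RPM, and 0 and 44.1 RPM against 609 and 296 RPM, and did not pass the test. Of the 15 outside the deletion none passed. Of 7 genes of the TNF receptor superfamily, Tnfrsf9 and Tnfrsf25 fell, both in the deletion (background again 3.13%). Tnfrsf9, a costimulatory receptor of T cells, had 84.6 and 93.8 RPM against 4163 and 3883 RPM. Tnfrsf4 and Tnfrsf18 on the flank had 2199 and 633 RPM against 113 and 503 RPM, and 1409 and 734 RPM against 147 and 585 RPM. Their Df libraries were both higher, and the fitted differences of 2.17 ± 1.43 and 1.54 ± 1.68 did not pass (edgeR quasi-likelihood, Benjamini-Hochberg adjusted p = 0.773 and 0.903). Line E71 was also the highest on its intact chromosome. Tnfrsf4 had 2247 and 374 RPM on +DBl6 E71 and E98 and 85.7 and 404 RPM on +Bl6. Tnfrsf18 had 1232 and 351 RPM on +DBl6 and 71.4 and 385 RPM on +Bl6.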

How the data were processed

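The deposited files hold raw counts of reads for each HindIII fragment on chromosome 4, one file per MEF line, viewpoint and allele. According to their methods the authors cut fixed chromatin with HindIII and DpnII, amplified each viewpoint by inverse PCR, assigned the allele from a polymorphism in the first read, trimmed the second read to 30 bases, aligned it with Bowtie (version not given in the sources used here) to sequences at HindIII sites of mm9, and summed unique matches per fragment. No bias correction or scaling had been applied to these counts. Ends that are not unique in the genome cannot be counted, and repeated amplification of 1 molecule cannot be recognised. The authors' tables of differential regions hold their own findings and were not used.

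Fragments were matched to the NCBI37 reference, with 48320 fragments of which 44593 had a unique 30-base end among 842075 HindIII sites of the genome. Reads outside 20 kb of the viewpoint were summed in 80 kb windows and over genes with 10 kb on each side. Those reaching 10 reads in 50% or more of the libraries entered a quasi-likelihood test (edgeR 4.0.16, TMM, R 4.3.3), with group as the only term and all 8 libraries of viewpoint 1 in the fit. SEs were derived from the log2 difference and its F statistic. For windows the Benjamini-Hochberg adjustment ran over the 4 viewpoints outside the deletion. DESeq2 1.42.0 was an alternative. The common dispersion was 1.36, so changes in single windows were weakly resolved. The scripts were tested on simulated data. Shares, ratios and slopes were compared with an exact permutation test, two-sided (scipy 1.17.1). Named windows and fragments are those with the highest lowest value among the 4 libraries in each distance class, and those called; where fewer than 3 were called in a direction, the smallest p outside the deletion. Named genes follow the same rule together with fixed lists by position and function. The libraries, lists and rules were chosen with earlier results of these data known.

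Per the methods, PCR products of lines E71 and E117 were purified with the High Pure kit and those of E98 and E118 with AMPure beads. This batch pairs the lines across groups and is used as a block in the alternatives. The deviations of the 2 batches correlated at 0.051 between Df and +129 over 1828 windows. Between the 2 alleles of the same lines they correlated at 0.252 (Df and +DBl6) and 0.352 (+129 and +Bl6). The 8 libraries come from 4 lines, and the fit with group as the only term took them as independent. What this did to its SEs and p-values was not tested. Some fragments and windows are not reported here.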

Additional observations from a re-analysis of the deposited data

Results flagged for a closer look

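In 12 of 882 windows (1.36%) the change from +129 to Df differed from the change from +Bl6 to +DBl6 (edgeR quasi-likelihood, Benjamini-Hochberg adjusted p below 0.05 for a test of that difference), and all 12 were lower on the 129S5 chromosome. Of these, 11 lay in the deleted interval and also fell between Df and +129. Their log2 differences between the chromosomes were -5.77 and -5.52 at the Errfi1, Park7 and Tnfrsf9 windows, -5.29 at Tnfrsf9, Uts2 and Per3, -9.46 in Camta1, -5.63 at Thap3 to Nol9, -5.06 at Plekhg5 to Espn, -4.87 at Espn to Acot7, -5.38 at Icmt to Chd5, -6.28 at A430005L14Rik to BC046331, -4.93 at Wdr8 to Megf6 and -6.27 in Prdm16. The Camta1 value was drawn out by a +DBl6 level of 5726 RPM in E71 against 64.1 RPM in E98.

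The remaining window, chr4:110000001-110080000 with Elavl4 and Agbl4, lies 37.9 Mb upstream. Its log2 difference between the 2 changes was -9.88 ± 2.07 (edgeR quasi-likelihood, Benjamini-Hochberg adjusted p = 0.000356). Its levels were 197 and 14.7 RPM on Df, 2660 and 343 RPM on +129, 5485 and 0 RPM on +DBl6, and 105 and 15.2 RPM on +Bl6, so the lines of 1 group differed as widely as the groups did.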

How the results depend on the processing

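The Df loss in the deleted interval, the higher near share, the lower ratio of downstream to upstream reads and both steeper slopes kept their direction under each of the 13 to 16 alternatives run for them, with log2 or slope differences of -4.876 to -1.461, 0.263 to 0.662, -1.369 to -0.443, -0.435 to -0.03 upstream and -0.259 to -0.091 downstream. Without the fragment 27 kb upstream the ratio was still lower on Df, by -0.754 (log2), and the upstream slope by -0.205. With the slope of a smoothing spline at 100 kb the upstream difference shrank to -0.03, with captured fragments to -0.044, and the groups overlapped in both. The upstream slopes also overlapped with the highest fragments capped. The downstream slopes overlapped with captured fragments, with reads divided by fragment length and with the spline. The near share difference of 0.662 came from captured fragments, and there too the groups overlapped. Its shares were 17.14% and 5.942% in Df E71 and E98 and 7.26% and 5.601% in +129 E117 and E118. The rise rested on Df E71, and +DBl6 E71 stood at 15.23%. The flank density over the upstream density kept its direction, at 0.118 to 1.456. The flank share, lower on Df in the main setting, turned higher when captured fragments were counted (0.339), when reads were divided by fragment length (0.351) and within purification batch 2 (0.004). The first 2 of these rested on 1 Df library each, and the groups overlapped. By captured fragments the share was 5.87% in Df E71 and 3.27% in Df E98, against 3.69% and 3.25% on +129. On +DBl6 E71 it was 5.11%. By fragment length it was 3.09% in Df E71 and 6.37% in Df E98, against 3.55% and 3.40% on +129. The share beyond 10 Mb turned with fragment length (0.06) and within batch 2 (0.002).

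Window calls between Df and +129, 22 in the main setting, numbered 42 with DESeq2, 13 without the read filter, 2 for captured fragments and 9 for windows of 400 kb. Leaving out 1 library gave 12 to 29, with 12 without +129 E117. Calls of the difference between the changes of the 2 chromosomes, 12 in the main setting, numbered 30 with DESeq2, 4 without the filter, 0 for captured fragments and 6 for windows of 40 kb. Leaving out 1 library gave 6 to 23, with 23 without Df E98 and 6 without +129 E117 or without +129 E118. Gene calls, 29 in the main setting, numbered 56 with DESeq2, 54 with 40 kb on each side, 0 for captured fragments (edgeR, 10 at an unadjusted p under 0.05), and 21 to 37 without 1 library. With the replicate block, in which purification batches pair the lines, there were 26 window calls and 35 gene calls. The block by MEF line gave 12 for the difference between the changes of the 2 chromosomes. Captured fragments lower the counts by construction, since a fragment then adds at most 1. The other causes were not tested. In Df E71, the thinnest library, 1 read was 28.2 RPM, so lower levels could not be seen there. Counting intervals leave out amplification and line differences.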
